A study of Mus musculus with 17 samples.

Results

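The 8 small nucleolar RNA host genes followed here were Gas5, Snhg1, Snhg3, Snhg5, Snhg6, Snhg8, Snhg12 and Zfas1. They were taken by symbol from a list that uses no expression threshold, though the list was drawn up with earlier results of these data known. All 8 were present among the 55487 genes of the count table. Transcripts were counted by RNA sequencing of total RNA from ventricular cardiomyocytes of 60-day-old mice, in loss-of-function animals for the RNA-binding protein MBNL1 (KO) and in controls (WT). The isolated cells had been plated on laminin and then received 2 µg/mL of actinomycin D, a blocker of transcription. KO cells were harvested at 0, 4 and 8 h with 3 libraries at each time, and WT cells at 0, 4 and 8 h with 3, 2 and 3 libraries. The stated purpose of the experiment was to find transcripts whose stability depends on MBNL1. The sources used here give neither the strain nor the allele or construct behind the loss of function. They do not say whether each replicate was its own animal, so the p-values rest on a spread between libraries that may be technical.

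Many, though not all, small nucleolar RNAs guide the chemical modification of ribosomal RNA: box C/D guides direct ribose methylation and box H/ACA guides direct pseudouridylation. In mammals most small nucleolar RNAs are cut out of the introns of longer host transcripts. The spliced host RNA of a noncoding host is left over from this process. Several such spliced RNAs are known from cultured cells to be engaged by ribosomes and destroyed by nonsense-mediated decay (NMD), the pathway that removes transcripts with early stop codons. Many hosts, coding and noncoding, are also known to start with a run of pyrimidines that begins with C, the terminal oligopyrimidine motif, which ties their translation to growth signals. Gas5 was named for its accumulation in growth-arrested cells. Snhg1 is the host of Snord22, Snhg5 of the Snord50 pair, Snhg3 of the Snora73 pair, and Zfas1 takes its name from its position antisense to Znfx1.

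The hosts differed in what they carry. The GENCODE M21 annotation of the GRCm38 build placed 32 small nucleolar RNA entries at 30 loci inside the 8 genes. Gas5 (chromosome 1, 161034422 to 161038539, plus strand) held 9 loci, Snhg1 (chromosome 19, 8723475 to 8726443, plus strand) 8 loci and Snhg12 (chromosome 4, 132308623 to 132311024, plus strand) 4 loci, among them Snora44, Snora61 and Snord99. Zfas1 (chromosome 2, 167062934 to 167065862, plus strand) held 3 loci. Snhg3 (chromosome 4, 132348014 to 132353686, minus strand) and Snhg5 (chromosome 9, 88521050 to 88522929, minus strand) held 2 each. Snhg6 (chromosome 1, 9941959 to 9944118, minus strand) held Snord87 alone and Snhg8 (chromosome 3, 123507552 to 123508404, minus strand) held Snora24 alone. Of the 32 entries, 2 had any count, with 15 counts summed over 17 libraries. Of the same entries 30 share annotated exon bases with their host, and how reads in shared bases were assigned is not stated, so these counts do not measure the small nucleolar RNAs. The part of reads from them in the counts of their hosts was not tested.

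The first 30 bases of 1 annotated transcript of each gene are shown for the pyrimidine start that many hosts are known to have. The Snhg1 transcript shown has a run of only 3 bases. The transcripts shown for Snhg1, Snhg5 and Zfas1 are annotated as the retained-intron type. The bases are read 5′ to 3′ from the GENCODE M21 transcripts, with the uninterrupted run of C and T at the first position in capitals.
Gas5: CTTTCggagctgtgcggcattctgagcagg
Snhg1: CTCatttttccttgttcggggtaagtactc
Snhg3: CTCTCTaggcgtcgctctcttggtgtgctt
Snhg5: CTTTTacgacggagcctaagatattctttg
Snhg6: CTTTCTCggcagcgccgtagagcgcgagca
Snhg8: CCCTCgcgcgcaggctcttgggagagcgtc
Snhg12: CCTTTCTCgcttcatccgcggtccctgtct
Zfas1: CCTTTCgttccggcggctcctagagcgttt

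A start with C followed by at least 4 further C or T, read on the transcript strand, was annotated for at least 1 transcript of 7 of the 8 genes (87.5%). None of the 18 Snhg1 transcripts had it, and the longest run at a Snhg1 start was 3 bases. The same letters stood at an annotated start of 1364 of 13216 tested genes (10.3%), and of 15.3% of the tested genes with 5 or more transcripts. They were present in 14 of 33 protein-coding host genes (42.4%) and in 1 of 10 other noncoding hosts. The motif was carried by 5 of 25 Gas5 transcripts and 3 of 10 Snhg12 transcripts. Snhg3, Snhg5, Snhg6, Snhg8 and Zfas1 had 1 transcript with it, of 3 to 6 each. The transcripts shown were chosen for this start, the counts do not tell transcripts apart, and a match describes the annotation only. The minimum run was settled after these starts had been seen, and those shown for Gas5, Snhg5 and Snhg8 just reach it. The share among the 8 genes is therefore no test against the other genes.

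Levels are given as CPM, the count scaled to a common library total after TMM correction. Each library held 17059736 to 17971617 counts, of which 35.1 to 43.3% came from the mitochondrial genome. Mbnl1 itself had 1627 to 1820 counts in the 9 KO libraries and 1465 to 1823 in the 8 WT libraries. The ranges overlapped, and as the labels do not say which part of the gene was lost, a count over the whole gene does not check the labels, on which every direction below rests. Cardiomyocyte markers such as Myh6 and Tnnt2 dominated, with 8 markers summing to 48500 to 50700 CPM in KO and 41100 to 43100 in WT at 0 h. Markers of other cells were low but detected, and several of these lists moved with genotype. Markers are counted as higher or lower where the edgeR adjusted p was under 0.05. Of all tested genes 17.9% were lower and 18.8% higher in KO at 0 h. Macrophage and leukocyte markers summed to 33.7 to 35.9 CPM in KO and 80 to 90.3 in WT at 0 h, with 8 of 8 lower in KO. Fibroblast markers summed to 34.4 to 37.5 CPM in KO and 66.9 to 68.6 in WT, with 7 of 8 lower. Endothelial markers were more abundant, at 179 to 210 CPM in KO and 226 to 243 in WT, with 6 of 8 lower and 1 higher in KO. Erythroid markers summed to 4.38 to 6 CPM in KO and 6.89 to 9.36 in WT. Pericyte and smooth muscle markers overlapped, at 123 to 132 CPM in KO and 120 to 133 in WT. By 8 h, macrophage and leukocyte markers summed to 22.1 to 25.7 CPM in KO and 19 to 23.1 in WT, fibroblast markers to 22.4 to 25.4 in KO and 38.6 to 45.1 in WT, and endothelial markers to 47.3 to 51.5 in KO and 53.4 to 58.7 in WT. All 8 fibroblast and all 8 endothelial markers fell from 0 h in both genotypes, as did 5 of 8 macrophage and leukocyte markers in KO and 8 of 8 in WT. Of all tested genes 23.2% fell in KO and 26.8% in WT. The part of these cells in the host transcript differences was not tested. In bulk RNA, fewer cells of a type and less RNA per cell cannot be told apart.

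The 8 transcripts were scarce, together contributing 409 to 679 counts to a library. Gas5 was the best covered, with 160 to 325 counts per library. Zfas1 had 48 to 93, Snhg6 35 to 103, Snhg1 41 to 87, Snhg12 26 to 64, Snhg8 17 to 52 and Snhg5 14 to 46. Snhg3 had 0, 1 or 2 counts in each library and 15 in all, and it was not tested for that reason. Of the annotated exon bases of Snhg3, 86.3% are shared with other genes. Snhg3 shares 135 bases with Rcc1 on the same strand and 705 with Gm17300 on the other strand. How reads in shared exons were assigned was not stated, so its low count is not a measure of its level. Snhg6 shares 127 exon bases with Mcmdc2 on the other strand. Zfas1 shares 82 with Znfx1 on the other strand and 189 with Gm27494 on the same strand. The counts of Snhg6 and Zfas1 carry the same uncertainty.

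Per kilobase of annotated exon, Snhg6 and Gas5 had the highest levels. Snhg6 ran from 1.51 to 5.4 CPM per kb with a median of 3.47, and Gas5 from 2.65 to 4.15 with a median of 3.14. Snhg6 was above Gas5 in 9 of 17 libraries, which were the KO libraries, and below it in the WT libraries. Their order thus followed genotype with the lengths used, 3760 bases for Gas5 and 1146 for Snhg6. Without division by length, Gas5 was above Snhg6 in every library, at 9.95 CPM or more against 6.19 CPM or less. At 0 h the mean of Snhg6 was 4.06 CPM per kb in KO and 1.95 in WT, and that of Gas5 3.23 and 3.83. At 8 h Snhg6 had 4.76 in KO and 2.72 in WT, and Gas5 2.83 and 3.65. Snhg8 followed with a median of 2.16 CPM per kb, below Gas5 in 15 of 17 libraries. Zfas1 had a median of 1.34, Snhg1 of 1.18, Snhg12 of 1.02 and Snhg5 of 0.844 CPM per kb. Each of these stood above the next in 11 to 13 of 17 libraries, and their ranges overlapped. The lengths are unions of all annotated exons, several of them from retained-intron transcripts, so levels per kilobase are lower bounds where shorter isoforms dominate. The order of the hosts per kilobase depends on these lengths.

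**Figure D1:**
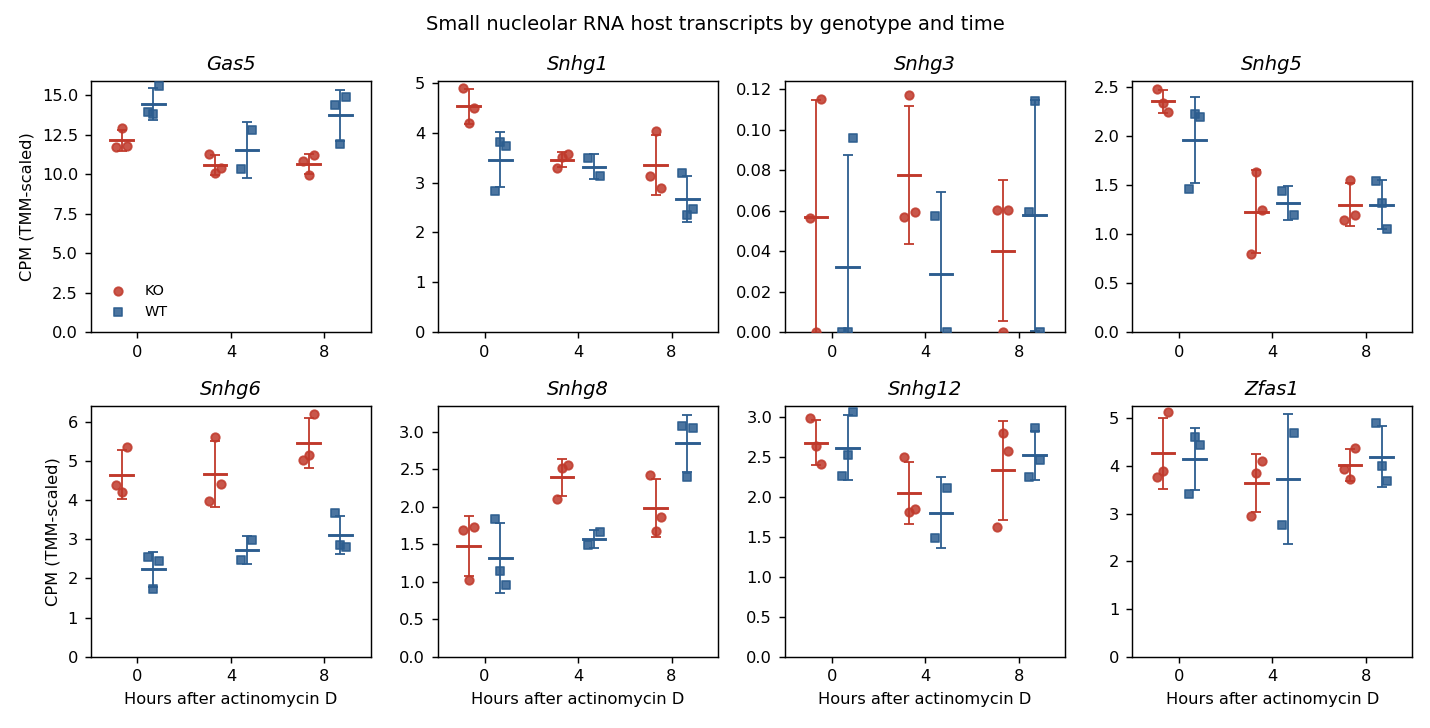
CPM after TMM scaling (vertical axis, starting at 0) of each host gene against hours after actinomycin D, with 1 point per library, KO as circles and WT as squares, lines for group means and bars for 1 SD. Snhg6 lies higher in all 9 KO libraries than in the WT libraries of the same hour, and Snhg3 rests on 0 to 2 counts per library.

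Before transcription was blocked, loss of MBNL1 went with more Snhg6, more Snhg1 and less Gas5. Snhg6, the host of Snord87, measured 4.39, 4.2 and 5.36 CPM in KO and 2.55, 1.73 and 2.44 CPM in WT. The lowest KO library was above the highest WT library. The fitted difference was a log2 fold change of 1.06 ± 0.17 (SE), or 2.08-fold, with an adjusted p of 6.41e-07 in edgeR's quasi-likelihood test. A difference is said to be called, or to pass, when its Benjamini-Hochberg adjusted p over all 13230 tested genes was under 0.05. Gas5 measured 11.7, 12.9 and 11.8 CPM in KO and 13.9, 13.8 and 15.6 CPM in WT. Again the groups did not overlap, but the gap was small, with a log2 fold change of -0.25 ± 0.09 (edgeR adjusted p = 0.0231). Snhg1 measured 4.9, 4.2 and 4.5 CPM in KO and 2.82, 3.81 and 3.73 CPM in WT, a log2 fold change of 0.39 ± 0.15 (edgeR adjusted p = 0.0391). These 3 of the 7 tested hosts passed, where 36.7% of all tested genes did, and the median over the 7 was 0.20 beside -0.02 over all tested genes.

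Snhg6 at 0 h passed under each alternative setting and without each library. The other 2 calls did not: Gas5 had an adjusted p of 0.108 in DESeq2 and of 0.084, 0.078 and 0.216 without KO replicate 1, KO replicate 3 or WT replicate 3. Snhg1 was at 0.18 when scaled by library size, 0.06 when scaled to the summed ribosomal protein counts (ribosomal protein scaling below) and 0.24 by the library size without mitochondrial genes, none of them called. Its adjusted p was 0.0862 in DESeq2, 0.113 with no filter on low counts, and 0.146, 0.0744 and 0.214 without KO replicate 1, KO replicate 3 or WT replicate 1.

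The remaining hosts were not called at 0 h. Snhg5 measured 2.25 to 2.48 CPM in KO and 1.46 to 2.23 in WT, with no overlap between the groups but a 95% interval of -0.16 to 0.66 on the log2 scale. Snhg8 spanned -0.30 to 0.70, Snhg12 -0.35 to 0.40 and Zfas1 -0.29 to 0.35 on that scale, so differences of either sign up to those bounds stayed within the intervals.

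The Snhg6 difference between genotypes was present at each later time. At 4 h Snhg6 measured 3.98, 5.61 and 4.4 CPM in KO and 2.47 and 2.97 CPM in WT, a log2 fold change of 0.77 ± 0.19 (edgeR adjusted p = 0.000909). At 8 h it measured 5.02, 5.16 and 6.19 CPM in KO and 3.67, 2.86 and 2.81 CPM in WT, a log2 fold change of 0.81 ± 0.16 (edgeR adjusted p = 5.82e-05). KO and WT did not overlap at either hour. With ribosomal protein scaling the 4 h difference was 0.42 and its adjusted p 0.0551. Snhg6 was the 1 host of 7 called at 4 h, where 32% of all tested genes were called.

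At 8 h, 2 of 7 hosts were called beside 27.6% of all tested genes. Besides Snhg6, Gas5 was lower in KO, with 10.8, 9.95 and 11.2 CPM against 14.4, 11.9 and 14.9 CPM in WT. Every KO library was below every WT library, and the log2 fold change was -0.37 ± 0.10 (edgeR adjusted p = 0.0024). This difference passed in each setting tried. At 4 h Gas5 had 11.3, 10.1 and 10.4 CPM in KO and 10.3 and 12.8 CPM in WT, which overlapped, and its log2 fold change of -0.12 ± 0.11 did not pass (edgeR adjusted p = 0.422). It did with ribosomal protein scaling, at -0.48 with an adjusted p of 0.000392, where the median of all tested genes was -0.4.

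Snhg8, the host of Snora24, lay on opposite sides at the 2 later times without passing at either. It measured 2.1, 2.51 and 2.56 CPM in KO and 1.49 and 1.66 CPM in WT at 4 h, with a log2 fold change of 0.60 ± 0.25 (edgeR adjusted p = 0.0607). At 8 h it measured 2.42, 1.68 and 1.86 CPM in KO and 3.08, 2.4 and 3.05 CPM in WT, with a log2 fold change of -0.51 ± 0.21 (edgeR adjusted p = 0.0576). The groups were apart at 4 h and touched at 8 h, where the highest KO library exceeded the lowest WT library. Both values sat near the threshold: the 4 h difference passed in 3 alternative settings and the 8 h difference in 6. Snhg1 at 8 h measured 3.14, 4.04 and 2.89 CPM in KO and 3.2, 2.35 and 2.46 CPM in WT, overlapping groups with a log2 fold change of 0.33 ± 0.18 (edgeR adjusted p = 0.165). Snhg1, Snhg5, Snhg12 and Zfas1 were within -0.11 to 0.19 on the log2 scale at 4 h and the last 3 within -0.11 to 0.00 at 8 h.

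**Figure D2:**
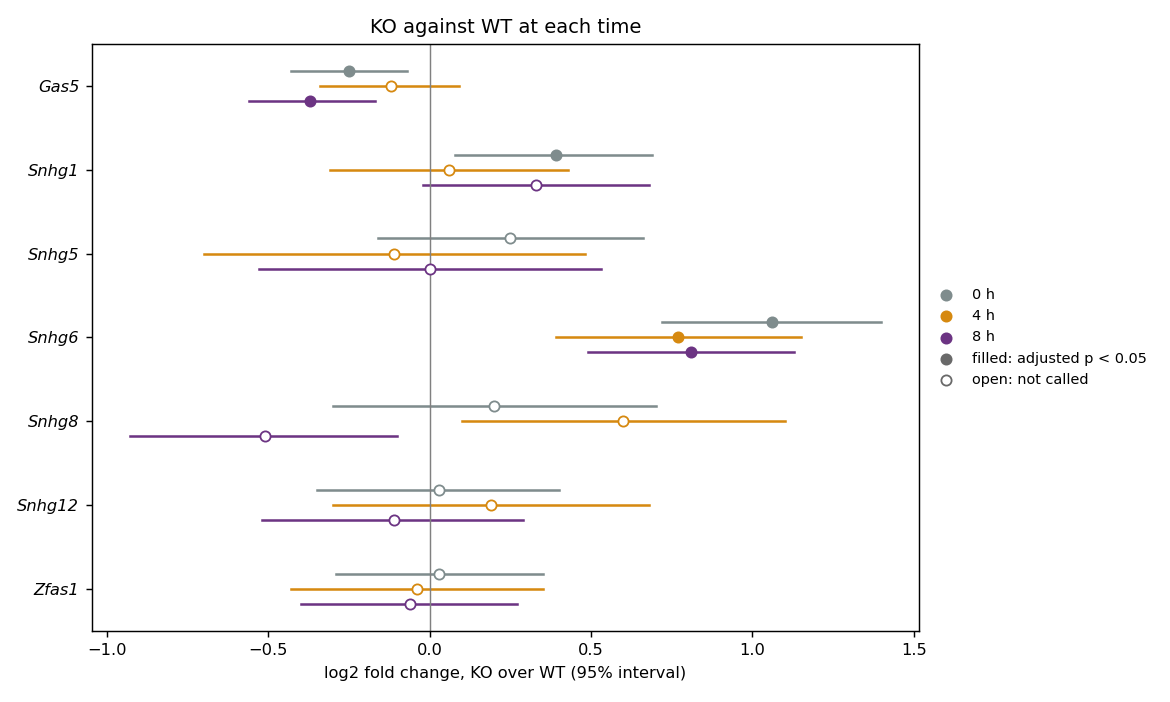
Log2 fold change of KO over WT (horizontal axis) for the 7 tested hosts at 0, 4 and 8 h, with 95% intervals and filled points where the adjusted p was under 0.05. Snhg6 is filled at every hour, at 1.06, 0.77 and 0.81, and Gas5 at 0 and 8 h on the opposite side of 0.

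All changes during the block are relative to the other transcripts, and TMM-scaled unless another scaling is named. A transcript that decays at the pace of most others thus stays level. Snhg5, the host of Snord50a and Snord50b, fell in both genotypes by 8 h. In KO it measured 0.795, 1.64 and 1.25 CPM at 4 h, against 2.48, 2.34 and 2.25 CPM at 0 h, a log2 fold change of -0.94 ± 0.24 (edgeR adjusted p = 0.00164). At 8 h KO cells had 1.15, 1.55 and 1.2 CPM, a log2 fold change of -0.86 ± 0.23 over 0 h (edgeR adjusted p = 0.00198). Every later KO library was below every KO library at 0 h, and both calls held in each setting tried. Snhg5 stood at 52.1% of its TMM-scaled baseline level at 4 h and 55.3% at 8 h.

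In WT, Snhg5 measured 1.54, 1.32 and 1.05 CPM at 8 h, against 1.46, 2.23 and 2.2 CPM at 0 h. WT replicate 1 at 0 h overlapped the 8 h libraries, and the log2 fold change was -0.60 ± 0.23 (edgeR adjusted p = 0.0269). Its adjusted p was 0.0962 in DESeq2 and 0.0506 with no filter on low counts. Without WT replicates 2 or 3 at 0 h it was 0.118 and 0.111, and without WT replicates 2 or 3 at 8 h it was 0.0558 and 0.131. At 4 h WT had 1.44 and 1.2 CPM, a log2 fold change of -0.58 ± 0.26 that did not pass (edgeR adjusted p = 0.0901).

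Snhg1 also fell in KO, with 3.14, 4.04 and 2.89 CPM at 8 h against 4.9, 4.2 and 4.5 CPM at 0 h. The libraries did not overlap, and the log2 fold change was -0.44 ± 0.16 (edgeR adjusted p = 0.0204). The adjusted p was 0.0838 in DESeq2, 0.0765 with no filter on low counts, and 0.09, 0.0733 and 0.12 without KO replicate 1 at 0 h, KO replicate 1 at 8 h or KO replicate 3 at 8 h. In WT, Snhg1 measured 3.2, 2.35 and 2.46 CPM at 8 h and 2.82, 3.81 and 3.73 CPM at 0 h, a log2 fold change of -0.38 ± 0.17 that did not pass (edgeR adjusted p = 0.0534). That WT value passed at -0.60 by library size, -0.65 without mitochondrial genes and -1.05 by ribosomal protein scaling. The median of all tested genes was then -0.24, -0.29 and -0.69 in that order. In KO at 4 h Snhg1 measured 3.29, 3.51 and 3.57 CPM, below all 0 h libraries, with a log2 fold change of -0.39 ± 0.16 (edgeR adjusted p = 0.057), which also passed without mitochondrial genes and by ribosomal protein scaling, at -0.52 and -0.61.

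Snhg8 moved the other way. In WT it measured 3.08, 2.4 and 3.05 CPM at 8 h, against 1.84, 1.14 and 0.958 CPM at 0 h, a log2 fold change of 1.13 ± 0.22 or 2.18-fold (edgeR adjusted p = 1.26e-05). The 8 h libraries were all above the 0 h libraries, and this call held in each setting tried, although ribosomal protein scaling brought the log2 value to 0.46. At 4 h WT cells had 1.49 and 1.66 CPM, which overlapped the 0 h libraries, with a log2 fold change of 0.28 ± 0.28 that did not pass (edgeR adjusted p = 0.488). The 8 h libraries were above both 4 h libraries, at 0.85 ± 0.24 (edgeR adjusted p = 0.0089). That later step had an adjusted p of 0.0851 without WT replicate 1 at 4 h and of 0.17 with ribosomal protein scaling.

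In KO, Snhg8 measured 2.1, 2.51 and 2.56 CPM at 4 h, against 1.69, 1.02 and 1.73 CPM at 0 h, a log2 fold change of 0.68 ± 0.23 (edgeR adjusted p = 0.0196). The libraries did not overlap. The adjusted p was 0.0523 in DESeq2, 0.107 with ribosomal protein scaling and 0.0599 with the non-mitochondrial library size. It was 0.159, 0.0668 and 0.072 without KO replicate 2 at 0 h, KO replicate 2 at 4 h or KO replicate 3 at 4 h. By 8 h the KO libraries had 2.42, 1.68 and 1.86 CPM, which overlapped those at 0 h, with a log2 fold change of 0.42 ± 0.24 (edgeR adjusted p = 0.15).

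Snhg6 rose in WT by 8 h with TMM scaling, at 3.67, 2.86 and 2.81 CPM against 2.55, 1.73 and 2.44 CPM at 0 h, a log2 fold change of 0.48 ± 0.18 (edgeR adjusted p = 0.0262). This direction depended on the scaling, with -0.19 under ribosomal protein scaling, and 0.26 and 0.21, not called, under library-size and non-mitochondrial scaling. The adjusted p was 0.167 without WT replicate 2 at 0 h and 0.176 without WT replicate 1 at 8 h. In KO, Snhg6 changed by 0.00 ± 0.15 at 4 h and 0.23 ± 0.15 at 8 h on the log2 scale, neither called.

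Gas5, the most abundant of the 8 by count, changed little. In WT it measured 10.3 and 12.8 CPM at 4 h, against 13.9, 13.8 and 15.6 CPM at 0 h, a log2 fold change of -0.32 ± 0.10 (edgeR adjusted p = 0.0133). The adjusted p was 0.0542 in DESeq2, 0.0637 without WT replicate 3 at 0 h and 0.323 without WT replicate 1 at 4 h. By 8 h WT cells had 14.4, 11.9 and 14.9 CPM, a change of -0.07 ± 0.09 from 0 h that did not pass. It was called at -0.29 by library size, -0.34 without mitochondrial genes and -0.74 by ribosomal protein scaling. In KO the changes were -0.19 ± 0.10 at 4 h and -0.19 ± 0.10 at 8 h, with adjusted p-values of 0.142 and 0.118 in edgeR. By ribosomal protein scaling they were -0.41 and -0.58, and without mitochondrial genes -0.32 and -0.41, all called, and by library size -0.22 and, called, -0.29. Ribosomal protein scaling put the median of all tested genes at -0.23 and -0.41 in KO at these times. In WT at 8 h that median was -0.69.

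Snhg12 and Zfas1 were not called in any comparison over time in the fit used here. Snhg12 measured 1.49 and 2.12 CPM in WT at 4 h, below 2.27, 2.53 and 3.06 CPM at 0 h, with a log2 fold change of -0.54 ± 0.23 (edgeR adjusted p = 0.0686). That fall passed under library-size, non-mitochondrial and ribosomal protein scaling, at -0.72, -0.71 and -0.73. The medians of all tested genes were then -0.15, -0.15 and -0.17. At 8 h Snhg12 measured 1.63, 2.8 and 2.58 CPM in KO and 2.25, 2.86 and 2.46 CPM in WT, both overlapping their own 0 h libraries. Zfas1 measured 3.93, 3.73 and 4.39 CPM in KO and 4.91, 4 and 3.69 CPM in WT at 8 h. Its changes from 0 h had 95% intervals of -0.42 to 0.25 in KO and -0.32 to 0.33 in WT on the log2 scale. With ribosomal protein scaling the 8 h falls were called for both hosts. That scaling also called 8215 of all 13230 tested genes lower in KO and 11267 in WT, with medians of -0.41 and -0.69. Snhg12 was then at -0.59 in KO (edgeR adjusted p = 0.00962) and -0.72 in WT (0.000574), and Zfas1 at -0.48 in KO (0.00977) and -0.66 in WT (0.00013).

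Counted by comparison, 2 of 7 hosts were called in KO at 4 h over 0 h, where 24.9% of all tested genes were, and 2 of 7 in KO at 8 h over 0 h, where 44.6% were. In WT 1 of 7 was called at 4 h over 0 h (28.5% of all tested genes), 3 of 7 at 8 h over 0 h (51.9%) and 1 of 7 at 8 h over 4 h (18.5%). In KO between 4 and 8 h edgeR called 0 of 7, with 0 at an unadjusted p under 0.05 and 0 in DESeq2, where 8.6% of all tested genes were called. The median log2 change over the 7 at 8 h was -0.19 in KO and -0.06 in WT, beside -0.02 and -0.03 over all tested genes. Both comparisons with 0 h within a genotype share their 0 h libraries.

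**Figure D3:**
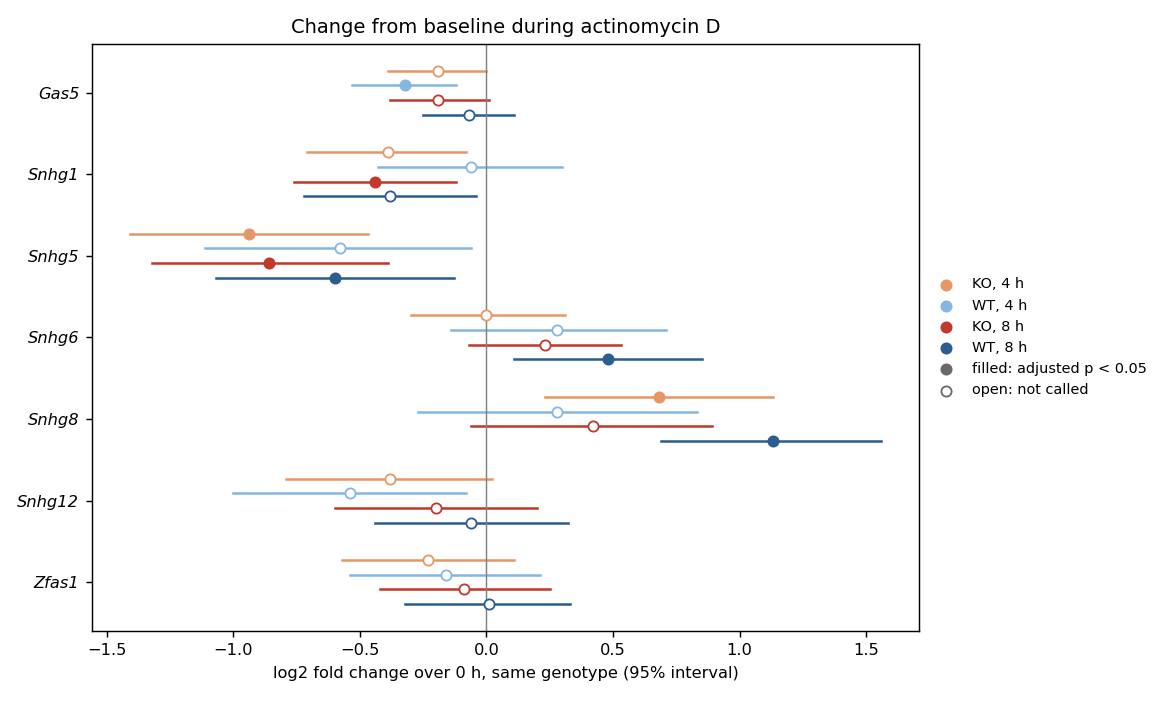
Log2 fold change over 0 h within a genotype (horizontal axis) of the 7 tested hosts at 4 and 8 h, with 95% intervals and filled points where the adjusted p was under 0.05. Snhg5 lies below 0 in all 4 comparisons, from -0.94 to -0.58, and Snhg8 above 0 in all 4, from 0.28 to 1.13.

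No difference in these time courses between the genotypes passed the test. The interaction, which is the KO change from 0 h minus the WT change, was called for 0 of 7 hosts at 4 h (0.348% of all tested genes) and for 0 of 7 at 8 h (5.2%). An unadjusted p under 0.05 was reached by 0 hosts at 4 h and 1 at 8 h in edgeR, and DESeq2 called 0 at both. The host with an unadjusted p under 0.05, named after its value was seen, was Snhg8 at 8 h, at -0.71 ± 0.33 on the log2 scale with an edgeR adjusted p of 0.217. All 7 estimates at 8 h were negative, from -0.71 to -0.06, while with ribosomal protein scaling those of Gas5, Snhg1, Snhg5, Snhg6, Snhg12 and Zfas1 were positive. For Snhg6 the 8 h interaction had a 95% interval of -0.72 to 0.23, and for Gas5 of -0.38 to 0.15. Differences between the KO and WT changes up to those bounds stayed within the intervals.

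Hosts that encode proteins mostly stood higher relative to other transcripts at 8 h than at 0 h with TMM scaling. Of 33 protein-coding hosts, largely ribosomal protein and translation factor genes, 25 rose and 2 fell in KO at 8 h, and 30 rose and 0 fell in WT. Their median log2 change was 0.34 in KO and 0.55 in WT. In WT the ribosomal protein genes Rpl32 and Rps12 rose by 0.92 ± 0.07 and 0.82 ± 0.06. In KO the translation factor gene Eef1b2 rose by 0.54 ± 0.05 and Tpt1 by 0.54 ± 0.04, while Gnl3, which encodes nucleostemin, was at -0.23 ± 0.09. The Gnl3 call (edgeR adjusted p = 0.0453) was lost in DESeq2, with RLE normalization, with no filter on low counts, and without each KO library at 0 or 8 h except KO replicate 3 at 0 h, at adjusted p-values of 0.055 to 0.248. Over all tested genes 21.4% rose and 23.2% fell in KO, and 25% rose and 26.8% fell in WT. The counts depended on the scaling: in KO 21 rose and 3 fell by library size, but 2 rose and 9 fell by ribosomal protein scaling. In WT 23 rose and 1 fell by library size, but 3 rose and 14 fell by ribosomal protein scaling, which takes many of these genes as its standard. Of all 13230 tested genes, 1495 rose and 3989 fell in KO by library size, and 1275 and 5898 in WT. By ribosomal protein scaling 28 of all tested genes rose and 8215 fell in KO, and 50 and 11267 in WT. Ribosomal protein genes have many near-identical pseudogene copies, and how shared reads were split is not stated.

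The 8 h interaction was called negative for 12 and positive for 0 of the 33 protein-coding hosts, beside 3.33% and 1.87% of all tested genes, and it was -0.54 for Rpl32. By library size 3 were negative and 1 positive, and by ribosomal protein scaling 2 were negative and 4 positive. Of all 13230 tested genes, 132 were called negative and 564 positive by library size, and 44 and 2888 by ribosomal protein scaling. At 0 h, 24 of 33 were higher and 2 lower in KO than in WT, beside 18.8% higher and 17.9% lower of all tested genes, with Rpl3 at 0.71 ± 0.06. That count also shifted: 9 were higher and 6 lower by library size, and ribosomal protein scaling gave 3 higher against 9 lower. Of all tested genes, 907 were higher and 5564 lower by library size, and 480 and 7605 by ribosomal protein scaling.

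Of 13 further noncoding hosts on the list, 10 were matched and 7 tested. At 8 h over 0 h edgeR called 0 of the 7 in KO, with 2 at an unadjusted p under 0.05 and 0 in DESeq2. In WT 0 rose and 3 fell, beside 25% and 26.8% of all tested genes, and DESeq2 called 2 falling. Their medians were -0.19 in KO and -0.43 in WT. In WT Snhg17 was at -1.30 ± 0.33, with a mean of 0.583 CPM at 8 h against 1.45 CPM at 0 h. Snhg14, the long transcript of the imprinted Snrpn region, was at -0.43 ± 0.14, with an adjusted p of 0.0623 without WT replicate 2 at 8 h. Dancr was at -1.55 ± 0.57, on means of 0.155 CPM at 8 h and 0.463 CPM at 0 h, but its adjusted p was 0.0577 in DESeq2 and, without WT replicate 3 at 8 h, 0.144 at a log2 change of -0.99. Snhg18 was at -0.67 ± 0.23 at 0 h and -0.74 ± 0.25 at 8 h in KO over WT, called in edgeR but not in DESeq2, where the adjusted p was 0.0709 and 0.0746. Its 0 h call was lost without KO replicate 2 (adjusted p = 0.1 in edgeR) or WT replicate 2 (0.146). Its 8 h call was lost without KO replicate 1 (0.13), KO replicate 3 (0.0741) or WT replicate 2 (0.0857). With ribosomal protein scaling 4 of the 7 fell in KO and 5 in WT over those 8 h, beside 8215 and 11267 of the 13230 tested genes.

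**Figure D4:**
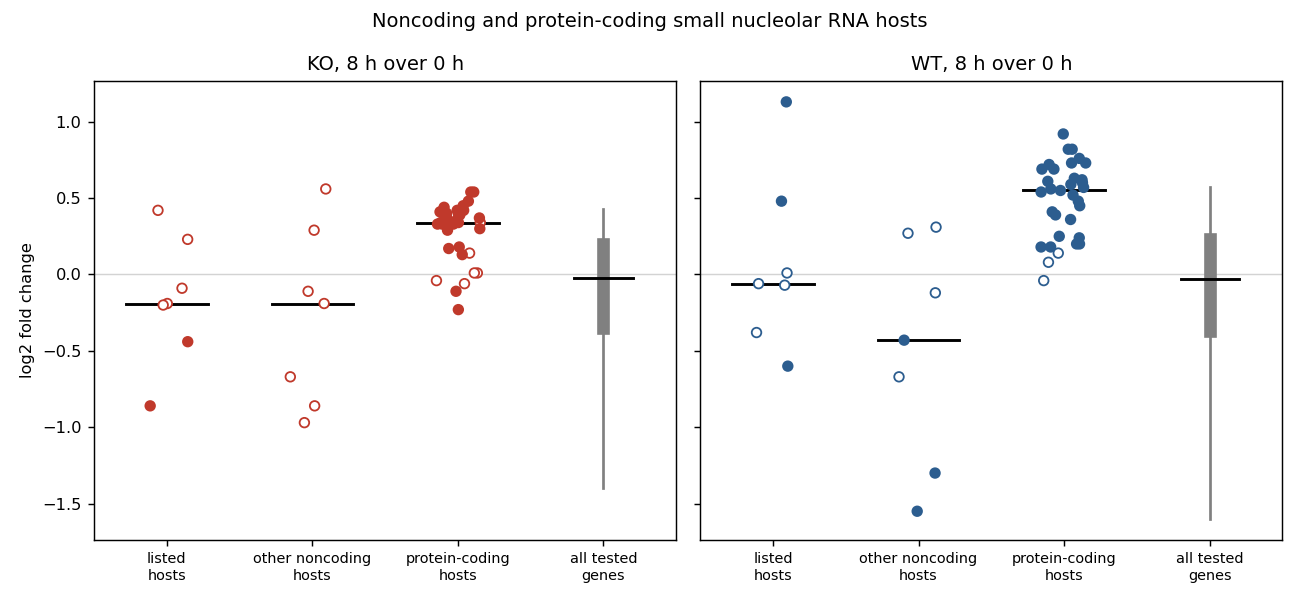
Log2 fold change of 8 h over 0 h (vertical axis) in KO (left) and WT (right) for the 7 tested hosts of the list, 7 other noncoding hosts and 33 protein-coding hosts, with filled points where the adjusted p was under 0.05 and black lines for medians. The grey bar gives the middle 50% of all tested genes and the thin line the 5th to 95th percentile; protein-coding hosts have medians of 0.34 and 0.55, and noncoding hosts lie on both sides of 0.

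Genes of the NMD pathway and genes that package the small nucleolar RNAs were measured beside the hosts. Whether NMD acts on these hosts in these cells was not tested. Of 14 NMD and exon junction factors, 3 were higher and 1 lower in KO than in WT at 0 h (18.8% and 17.9% of all tested genes), and 2 were higher and 1 lower at 8 h (13.9% and 13.7%). Smg1, the kinase of the NMD helicase Upf1, was higher by 0.15 ± 0.06 at 0 h and by 0.51 ± 0.06 at 8 h, and Eif4a3, an exon junction core protein, by 0.34 ± 0.07 and 0.24 ± 0.07. The 8 h Eif4a3 call was lost by library size, non-mitochondrial and ribosomal protein scaling, and without KO or WT replicate 3. At 0 h Smg1 was at -0.05 by library size and -0.17 by ribosomal protein scaling, where 0 of the 14 were higher and 5 or 8 lower. Of all 13230 tested genes, 907 or 480 were higher and 5564 or 7605 lower under those scalings. The 0 h call of Smg1 was also lost with stricter or no filtering of low counts and without KO replicates 1 or 2 or WT replicate 1. At 8 h over 0 h, 0 rose and 3 fell in KO, beside 21.4% and 23.2% of all tested genes, and 2 rose and 3 fell in WT, beside 25% and 26.8%, with Smg8 at -0.67 ± 0.13 in KO and -0.73 ± 0.13 in WT. By library size 6 fell in KO and 8 in WT, and by ribosomal protein scaling 13 and 14, with 0 rising in either. Of all tested genes, 3989 fell in KO and 5898 in WT by library size, and 8215 and 11267 by ribosomal protein scaling. With TMM scaling the 8 h interaction was called for 1 of the 14, beside 5.2% of all tested genes. That gene was Smg1, at 0.36 ± 0.09 (edgeR adjusted p = 0.00621, and 0.0655 without KO replicate 2 at 8 h).

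Of 16 genes for the core and assembly of small nucleolar ribonucleoproteins, 3 were higher and 0 lower in KO than in WT at 0 h, beside 18.8% and 17.9% of all tested genes. Ruvbl2, an assembly ATPase, was at 0.41 ± 0.10, and Nop58, a box C/D core protein and itself a host, at 0.24 ± 0.08. By library size 0 were higher and 1 lower, and by ribosomal protein scaling 0 higher and 4 lower, with Nop58 at -0.09. Of all 13230 tested genes, 907 were higher and 5564 lower by library size, and 480 and 7605 by ribosomal protein scaling. At 8 h over 0 h 4 rose and 0 fell in KO, beside 21.4% and 23.2% of all tested genes, and 8 rose and 0 fell in WT, beside 25% and 26.8%. The KO share rising was thus close to that of all tested genes. Nhp2, a box H/ACA core protein, rose by 0.30 ± 0.11 in KO and 0.61 ± 0.11 in WT. By library size 1 rose and 1 fell in KO and 2 rose in WT, beside 1495 rising and 3989 falling of all tested genes in KO, and 1275 rising in WT. Ribosomal protein scaling gave 0 rising in either and 11 falling in KO and 14 in WT, beside 8215 and 11267 falling of all tested genes. Nhp2 was then at -0.09 in KO and -0.05 in WT. Its KO call was also lost by library size, non-mitochondrial scaling, without KO replicate 1 at 0 h or without KO replicate 3 at 8 h.

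Of 6 coding transcripts known as NMD targets, 1 rose and 4 fell in KO at 8 h over 0 h, beside 21.4% and 23.2% of all tested genes, and 1 rose and 2 fell in WT, beside 25% and 26.8%. Trib3, a pseudokinase of the stress response, fell by 1.82 ± 0.32 in KO and 2.24 ± 0.39 in WT. Gadd45b, a stress-induced gene, fell by 1.23 ± 0.11 in KO and 1.16 ± 0.10 in WT. With TMM scaling Gadd45a rose by 0.27 ± 0.07 in KO and 0.72 ± 0.06 in WT, with an interaction of -0.45 ± 0.10 (edgeR adjusted p = 0.0017). None of these was called with ribosomal protein scaling, at -0.12 in KO, 0.05 in WT and an interaction of -0.17 (edgeR adjusted p = 0.232, 0.527 and 0.295). The KO rise was also not called by library size, at 0.16, or by non-mitochondrial scaling, at 0.04. With TMM scaling 2 of the 6 had a negative 8 h interaction that was called, beside 3.33% of all tested genes. Besides Gadd45a this was Ddit3, at -0.68 ± 0.18 (edgeR adjusted p = 0.0142). The Ddit3 call was lost in 3 of 12 fits that left out 1 library, with adjusted p-values up to 0.0834. It was also lost in 2 of 9 other settings, with adjusted p-values up to 0.114.

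Over the 21 pairs of tested hosts, Pearson's r of log2 CPM across 17 libraries ran from -0.629 for Snhg5 and Snhg8 to 0.728 for Snhg1 and Snhg5, with a median of 0.141. Snhg6 and Gas5 were at -0.619. These libraries share their groups and their scaling, and most hosts have few counts, so the values are descriptions. Gas5 was the only host with a mean log2 CPM of at least 3. Of 6773 genes at that level, those nearest to its profile over the 17 libraries were Jun at r = 0.873, Sec22b at 0.828, Zfp260 at 0.826, Arfgap2 at 0.821 and Ier2 at 0.804.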

How the data were processed

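Per the labels, total RNA was sequenced on the DNBseq platform. The authors deposited raw counts of 55487 genes in 17 libraries, and ratios to baseline for 20174 genes. STAR, featureCounts, DESeq2, limma, GRCm38 and mm10 are named in the submitters' processing notes, without versions. Strand settings and the handling of multiply placed reads were not stated.

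The deposited counts entered edgeR 4.0.16 (R 4.3.3): filterByExpr left 13230 genes with 99.9% of counts, TMM scaled the libraries, and a robust quasi-likelihood model of all 6 genotype-by-time groups was fitted, with a biological coefficient of variation of 5.28%. Benjamini-Hochberg adjustment covered all tested genes of a comparison. The code was tested on simulated data. Positions and transcripts came from GENCODE M21, which held 55140 gene identifiers of the table (99.4%).

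The host genes and companion lists were chosen with earlier results of these data known. Every host is described; from a companion list, at most 3 called genes in each direction, those with the largest change, could be named in a comparison. The minimum run of 5 pyrimidines and the transcript shown for each gene were settled after the start sequences had been seen: the longest run was used first and then replaced by the start that most transcripts with such a run share.

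Alternatives were RLE factors, library size, the summed counts of 83 ribosomal protein genes, library size without mitochondrial genes, other filters on low counts (none, or a CPM of 1 in 3 libraries), DESeq2 1.42.0, fitting only the groups compared, a replicate block, and leaving out each library. The 16 pairs of libraries within groups differed by 1.26 to 1.93 times the squared difference that Poisson counting gives, and none was treated as a duplicate. Residuals of 40 pairs with equal replicate numbers correlated at -0.0565 to 0.0578, and the numbers were not taken to pair libraries. Where 1 of the 2 WT libraries at 4 h was left out, the lone library was assumed to vary like the other groups.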

Additional observations from a re-analysis of the deposited data

How the results depend on the processing

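Of the 77 comparisons of a host gene, 15 were called, and 6 of these were called under every alternative and without each library: Snhg6 in KO over WT at 0 and 8 h, Gas5 in KO over WT at 8 h, Snhg5 in KO at 4 and 8 h over 0 h, and Snhg8 in WT at 8 h over 0 h. No setting called 44 of the 77. A sign changed in some setting for 37, of which 1 was called (Snhg6 in WT at 8 h over 0 h). The number of hosts called moved beyond 1.5 times in these cases. DESeq2 called 1 in KO over WT at 0 h, 0 in WT at 4 h over 0 h, 1 in KO at 4 h over 0 h and 1 in KO at 8 h over 0 h. It gave no adjusted p for Snhg8 in WT at 8 h over 4 h, so that count was not compared. RLE factors and the fit of only the groups compared each called 2 in KO over WT at 4 h. In WT at 4 h over 0 h, 3 were called by library size, 3 by ribosomal protein scaling and 3 without mitochondrial genes. Of all 13230 tested genes 3304, 3087 and 3495 were called in that order. Ribosomal protein scaling called 6 in WT at 8 h over 0 h, 5 in KO at 4 h over 0 h and 5 in KO at 8 h over 0 h, and the last comparison had 1 with no filter on low counts. Of all 13230 tested genes, ribosomal protein scaling called 11317, 4638 and 8243 in these comparisons. Leaving out 1 library gave 1 to 3 calls in KO over WT at 0 h, 1 to 2 at 4 h, 0 to 3 in WT at 4 h over 0 h, 1 to 4 at 8 h over 0 h, 0 to 2 at 8 h over 4 h, 1 to 2 in KO at 4 h over 0 h and 1 to 2 at 8 h over 0 h. A fit with replicate number as a block called 3, 1 and 2 hosts in KO over WT at 0, 4 and 8 h, and it changed no count in any comparison, although nothing shows that equal numbers pair the libraries. The scaling moved the median of all tested genes: at 0 h KO over WT it was -0.22 by library size, -0.35 by ribosomal protein scaling and -0.16 without mitochondrial genes, beside -0.02 with TMM. In WT at 8 h over 0 h it was -0.24, -0.69 and -0.29 in that order, and in KO -0.12, -0.41 and -0.24.

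Under ribosomal protein scaling, the log2 values whose sign changed were, for KO over WT at 0 h, Snhg5 -0.08, Snhg8 -0.13, Snhg12 -0.30, Zfas1 -0.30, Atf4 -0.07, Rbm8a -0.13, Smg1 -0.17, Nolc1 -0.06 and Nop58 -0.09. For KO over WT at 4 h they were Snhg1 -0.30, Snhg12 -0.17, Magoh -0.06, Eif4a3 -0.12, Nop58 -0.08 and Snu13 -0.16. For WT 8 h over 0 h they were Snhg6 -0.19, Zfas1 -0.66, Rbm8a -0.35, Upf2 -0.42, Nhp2 -0.05, Znhit6 -0.22 and Pih1d1 -0.24. For WT 8 h over 4 h they were Gas5 -0.22, Snhg6 -0.28, Zfas1 -0.30, Upf3b -0.09, Nhp2 -0.02, Pih1d1 -0.11 and Snu13 -0.27. For KO 4 h over 0 h they were Snhg6 -0.22 and Snu13 -0.03. For KO 8 h over 0 h they were Snhg6 -0.16, Gadd45a -0.12, Nhp2 -0.09 and Rrp9 -0.17. For KO 8 h over 4 h they were Gas5 -0.16, Snhg5 -0.08 and Zfas1 -0.02. For the interaction at 8 h they were Gas5 0.16, Snhg1 0.22, Snhg5 0.02, Snhg6 0.03, Snhg12 0.13 and Zfas1 0.18. By library size, the log2 values whose sign changed were, for KO over WT at 0 h, Snhg8 -0.01, Snhg12 -0.18, Zfas1 -0.18, Rbm8a 0 and Smg1 -0.05. For WT 8 h over 0 h they were Zfas1 -0.21. For KO 4 h over 0 h they were Snhg6 -0.02. For KO 8 h over 4 h they were Gas5 -0.08. For the interaction at 4 h they were Zfas1 0.09. For the interaction at 8 h they were Snhg1 0.05 and Zfas1 0.01. By the library size without mitochondrial genes, the log2 values whose sign changed were, for KO over WT at 0 h, Snhg12 -0.12 and Zfas1 -0.12. For KO over WT at 4 h they were Snhg1 -0.04. For WT 8 h over 0 h they were Zfas1 -0.26 and Upf2 -0.02. For KO 4 h over 0 h they were Snhg6 -0.12. For KO 8 h over 0 h they were Rrp9 0. For KO 8 h over 4 h they were Gas5 -0.10 and Snhg5 -0.02. With no filter on low counts, signs changed for Snhg12 -0.01 in KO over WT at 0 h, Zfas1 0 in KO over WT at 0 h, Zfas1 0 in KO over WT at 4 h, Snhg5 0.02 in KO over WT at 8 h, Snhg5 0.02 in WT 8 h over 4 h, Zfas1 0.01 in the interaction at 4 h and Snhg1 0 in the interaction at 8 h. With RLE factors, signs changed for Snhg5 0.02 in KO over WT at 8 h and Snhg5 0 in WT 8 h over 4 h. In DESeq2, signs changed for Snhg5 0.02 in KO over WT at 8 h. With a CPM of 1 in 3 libraries, signs changed for Zfas1 0 in WT 8 h over 0 h and Snhg6 0 in KO 4 h over 0 h. Fitting only the groups compared, signs changed for Zfas1 0 in WT 8 h over 0 h, Snhg5 0 in WT 8 h over 4 h, Snhg6 -0.01 in KO 4 h over 0 h and Gas5 0 in KO 8 h over 4 h. Values of 0 are rounded.

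Leaving out 1 library turned these signs, given as the lowest and highest log2 value. KO over WT at 0 h gave Snhg12 -0.06 to 0.18 and Zfas1 -0.12 to 0.14. KO over WT at 4 h gave Gas5 -0.25 to 0.08, Snhg5 -0.37 to 0.13, Snhg12 -0.01 to 0.49 and Zfas1 -0.34 to 0.43. KO over WT at 8 h gave Snhg5 -0.15 to 0.13, Snhg12 -0.26 to 0.09 and Zfas1 -0.15 to 0.06. WT 4 h over 0 h gave Zfas1 -0.62 to 0.15. WT 8 h over 0 h gave Gas5 -0.14 to 0.02, Snhg12 -0.16 to 0.08 and Zfas1 -0.12 to 0.10. WT 8 h over 4 h gave Snhg5 -0.15 to 0.14 and Zfas1 -0.14 to 0.64. KO 4 h over 0 h gave Snhg6 -0.15 to 0.12. KO 8 h over 0 h gave Snhg12 -0.35 to 0 and Zfas1 -0.17 to 0.07. KO 8 h over 4 h gave Gas5 -0.03 to 0.06, Snhg1 -0.20 to 0.05 and Snhg5 -0.15 to 0.35. The interaction at 4 h gave Snhg12 -0.05 to 0.46 and Zfas1 -0.38 to 0.39. The interaction at 8 h gave Snhg1 -0.21 to 0.09, Snhg12 -0.30 to 0.06 and Zfas1 -0.20 to 0.06. Apart from the scalings, whose construction moves all genes together, the cause was not tested. Counting error limits Snhg5 and Snhg8 most, with 14 to 46 and 17 to 52 counts per library, and Snhg3 could not be tested.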

Other observations

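The authors' deposited table of ratios to baseline placed the hosts as follows. At 8 h Snhg5 averaged 0.472 ± 0.0805 in KO and 0.609 ± 0.108 in WT (SD, n = 3 each), Snhg8 averaged 1.16 ± 0.196 in KO and 1.88 ± 0.252 in WT, and Gas5 averaged 0.763 ± 0.0355 in KO and 0.869 ± 0.108 in WT. Snhg6 averaged 1 ± 0.126 in KO and 1.29 ± 0.19 in WT in the authors' deposited table. Over the 28 group means of the 7 tested hosts, the deposited ratio was 0.832 to 0.95 times the ratio of TMM-scaled CPM. Of the 28 means, 21 were below 1 in the authors' deposited table and 19 from CPM.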
